A study of Mus musculus with 2 samples.

Results

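The microRNA genes described here are 31 that are best known from striated muscle, liver, gut and pancreas, epithelia, sensory organs or the Hox clusters, and they were measured in mouse hippocampus. They were taken by name from the 2202 microRNA genes in the count files, and all 31 were found there. The rule names genes by the tissue each is best known from and uses no measured value. Small RNA under 30 nt was sequenced from tissue that the labels call a layer of hippocampus, of male mice of the hybrid strain B6CASTF1/J, a cross of C57BL/6J and CAST/EiJ, at 10 days of age, with no treatment or genetic change named in the labels. The 2 libraries, replicate 1 and replicate 2, form 1 group, each from 3 males that carry different animal numbers but the same donor identifier. Their SD is therefore the spread between 2 libraries, which may be partly technical, and the data hold no contrast between conditions.

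MicroRNAs are cut from hairpin precursors into strands of about the length of the reads, and a strand finds its target transcripts mainly through its seed, the short stretch just behind its 5′ end. Many of the genes are switched on with a tissue's own program: miR-1, miR-133 and miR-206 with the myogenic factors, miR-122 in hepatocytes, miR-216 and miR-217 in pancreatic acinar cells, and miR-200 in epithelia, where it represses Zeb1 and Zeb2. The miR-183 cluster is typical of photoreceptors and hair cells, and miR-10 and miR-196 lie among the Hox genes, whose expression in the nervous system ends in the hindbrain. In forebrain such as hippocampus these genes are therefore usually treated as low or silent.

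The mature sequences below are shown because their seeds group the genes and because their likeness bears on which reads could be counted. The mature entries used here are only a part of the RefSeq table for GRCm38.p6, and what they leave out is stated below. Of the 31 genes, 26 have entries in that part, 51 sequences in all, from which these were taken. They run 5′ to 3′, the seed (bases 2 to 8) is in capitals, and the arm shown is the one usually regarded as the functional strand. The counts are per hairpin, so they do not say which arm was sequenced.
miR-206-3p: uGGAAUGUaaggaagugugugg
miR-133b-3p: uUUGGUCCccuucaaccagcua
miR-208a-3p: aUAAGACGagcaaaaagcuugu
miR-208b-3p: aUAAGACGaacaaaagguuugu
miR-499-5p: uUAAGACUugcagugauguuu
miR-194-5p: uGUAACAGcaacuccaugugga
miR-217-5p: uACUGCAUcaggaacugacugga
miR-200b-3p: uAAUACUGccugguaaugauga
miR-200c-3p: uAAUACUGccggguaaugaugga
miR-429-3p: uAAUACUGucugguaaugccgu
miR-200a-3p: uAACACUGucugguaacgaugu
miR-141-3p: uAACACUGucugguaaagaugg
miR-183-5p: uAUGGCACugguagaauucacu
miR-182-5p: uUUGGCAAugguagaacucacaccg
miR-96-5p: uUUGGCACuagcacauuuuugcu
miR-10a-5p: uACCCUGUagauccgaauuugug
miR-10b-5p: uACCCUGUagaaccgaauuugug
miR-196a-5p: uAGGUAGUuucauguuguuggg
miR-196b-5p: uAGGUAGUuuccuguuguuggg

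Within the miR-200 family the seed AAUACUG is shared by miR-200b, miR-200c and miR-429, and AACACUG by miR-200a and miR-141. With positions counted from 1 at the 5′ end, miR-200b-3p and miR-200a-3p differ inside the seed at U4C. The paralogs miR-10a and miR-10b differ at U12A alone, and miR-196a and miR-196b at A12C alone, so each pair has a common seed. The heart microRNAs miR-208a and miR-208b also share a seed and differ at G10A, A16G and C18U. The seed of miR-206 is that of miR-1 in the literature. The miR-1 strand is not among the entries used here, which leave out chromosome 18 and with it Mir1a-2, Mir1b, Mir133a-1 and Mir122. Mir133a-2, on chromosome 2, has no entry either. Genes on chromosome 18 that share a seed with a listed gene would likewise be missed. The whole of miR-194-5p lies in both Mir194 hairpins, and the whole of miR-196a-5p in both Mir196a hairpins.

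The 31 genes were present at low levels. Together they took 1519 of 4815761 counts on genes in replicate 1 and 805 of 3495401 in replicate 2, which is 315 and 230 CPM (counts per 1000000 counts on genes). Their exact 95% Clopper-Pearson intervals were 299.8 to 332 CPM and 215 to 247 CPM, where such intervals cover counting error only, and do not overlap. The limit for a gene without counts, taken as 3 counts, was 0.623 and 0.858 CPM in the 2 libraries. A gene was called detected at 10 counts over both libraries. By that rule 18 of the 31 were detected (58.1%), against 540 of all 2202 genes (24.5%). Another 7 had 1 to 9 counts, and 6 had 0 counts in both libraries.

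Among the 540 detected genes, the highest of the 18 ranked 235 by mean level and the lowest ranked 527. Their median level was 8.04 CPM, against 28.0 CPM over all detected genes and 86792 CPM for the highest. Counts of different microRNAs are compared here as read counts, not divided by hairpin length, since a read covers a mature strand. Whether different strands were captured equally well was not tested. In order of mean level came Mir206, Mir122, Mir217, Mir10b, Mir194-2, Mir200c, Mir183, Mir429, Mir10a, Mir192, Mir499, Mir208a, Mir182, Mir216a, Mir200b, Mir216b, Mir196b and Mir200a. Of the 17 neighbouring pairs in that order, 15 had overlapping values in the 2 libraries. The 2 steps without overlap were from Mir217 to Mir10b and from Mir200b to Mir216b, but at both the exact intervals of the genes overlapped in each library. The order of neighbours is therefore not settled. Genes further apart in it could be told apart, such as Mir10b (lower bounds 20.3 and 18.7 CPM) and Mir200b (upper bounds 6.16 and 7.79 CPM).

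**Figure D1:**
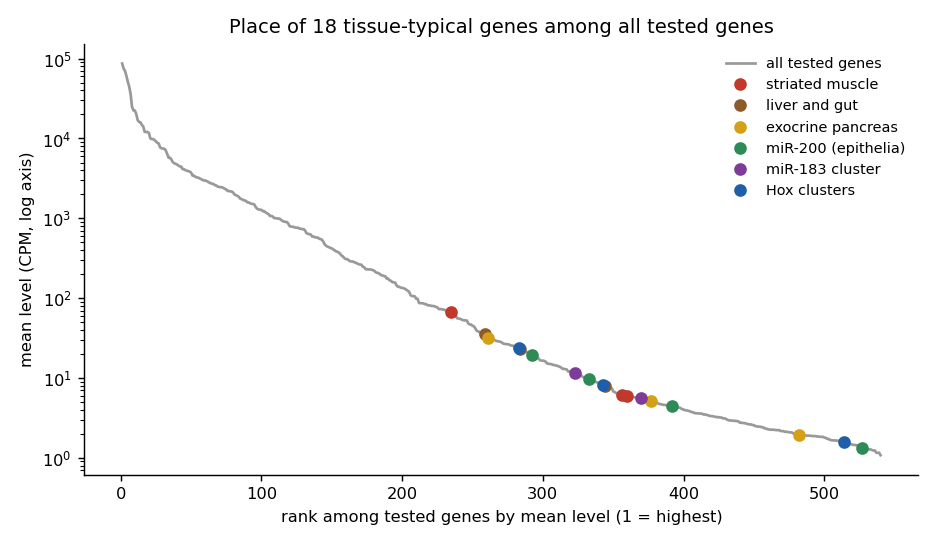
Mean level over both libraries (CPM, log axis) against rank for the 540 detected genes (grey line), with the 18 detected tissue-typical genes as coloured points by list. They run from rank 235 (Mir206) to rank 527 (Mir200a), so every gene of higher rank than Mir206 is outside the list.

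Some microRNAs of brain were abundant in both libraries, and others were low. The 16 genes of a list of neurons and brain summed to 82042 CPM in replicate 1 and 106339 CPM in replicate 2. That list was chosen with earlier results of these data known, so its sum does not show how abundant brain microRNAs are in general. Of that list 14 were detected, and 12 share at least 20 bases with another microRNA gene. Mir139 (31820 and 57346 CPM) and Mir149 (25508 and 19256 CPM) made up most of the sum. Mir9-1, Mir9-2 and Mir9-3 were low, from 2.70 CPM (Mir9-2) to 86.2 CPM (Mir9-3) in replicate 1. In replicate 2 they ran from 3.15 to 59.5 CPM. The 3 genes of miR-124, the most typical neuronal microRNA, held only 17 counts in replicate 1 and 17 in replicate 2. Single uniquely placed genes of liver or pancreas thus had more counts than the Mir124a genes, and levels of genes with copies and without cannot be set side by side in these files.

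**Figure D2:**
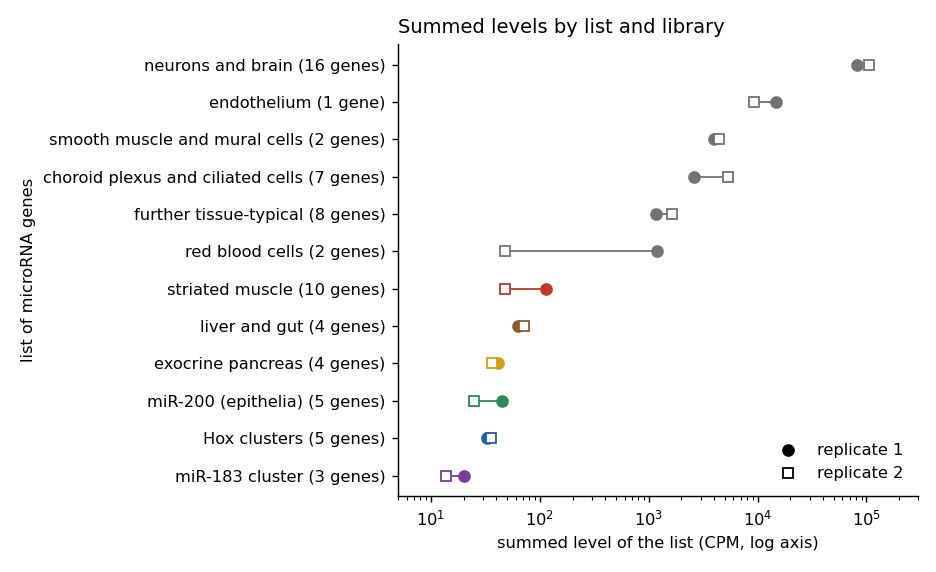
Summed level of each list (CPM, log axis) in replicate 1 (filled circles) and replicate 2 (open squares), with the tissue lists in colour and the marker and further lists in grey. The tissue lists lie between 13.7 and 113 CPM, and the brain list, chosen with earlier results of these data known, at 82042 and 106339 CPM. The sums hold only placed reads, and 12 of 16 brain genes and 6 of 10 muscle genes share at least 20 bases with another gene. The lists also differ in their number of genes, so the sums do not compare the abundance of the microRNAs.

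Reads that fitted several places form a total of their own and are not in the gene counts. They made up 37.7% of all reads in replicate 1 and 39.8% in replicate 2. Of the 31 genes, 10 share at least 20 consecutive bases, on either strand, with a counted microRNA gene elsewhere: 6 of muscle, 2 of liver and gut, and 2 of the Hox clusters. Of those 10, 1 was detected (10%), against 17 of the other 21 (81.0%). Over all genes the same shares were 8.65% of 1087 and 40% of 1115. The counts of the 10 genes hold only reads that could be placed, and a value of 0 among them does not show that the microRNA was absent. How many of their reads fitted several places was not tested.

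**Figure D3:**
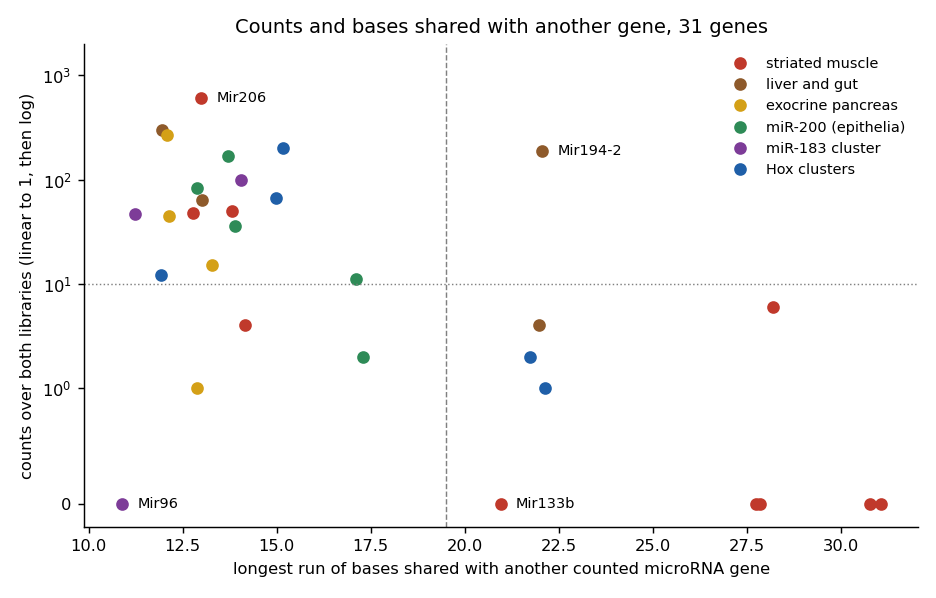
Counts over both libraries (linear up to 1, then log) against the longest run of bases shared with another counted microRNA gene, for the 31 genes, with a small sideways shift so that points stay visible. Right of the dashed line at 20 bases, Mir194-2 is the 1 gene above the dotted line at 10 counts, while to its left 17 of 21 genes lie above it.

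In the striated muscle list, Mir206 had the most counts of placed reads, and the Mir1a and Mir133 genes had no counts. Mir206, the skeletal muscle member of the miR-1 family, had 493 counts in replicate 1 and 114 in replicate 2, or 102 and 32.6 CPM. The exact intervals, 93.5 to 112 and 26.9 to 39.2 CPM, lay well apart, so replicate 1 was the higher library. Its mean was 67.5 ± 49.3 CPM (SD, n = 2), and it made up 90.3% of the list's counts in replicate 1 and 67.5% in replicate 2. These shares cover only reads that could be placed, and 6 of the list's 10 genes share at least 20 bases with another gene. Whether miR-206 exceeded miR-1 or miR-133 in this tissue was not tested. An exon of the noncoding gene Gm28653 holds Mir206, on chromosome 1 at 20679010-20679082 in mm10, the build of every position here. Its neighbour Mir133b lies in the same host gene 3686 bases downstream and had 0 counts in both libraries. The 2 hairpins differ in how far they can be told from others: the longest run that Mir206 shares is 13 bases, with Mir1a-1, while Mir133b shares 21 with Mir133a-2. The mature miR-133b-3p printed above differs from a stretch of the Mir133a-2 hairpin by 1 base.

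Of the heart genes of the muscle list, Mir208a and Mir499 were detected at single-digit levels, and Mir208b was not detected. Mir208a, in an intron of Myh6, the alpha myosin heavy chain gene, had 6.02 CPM in replicate 1 and 6.01 in replicate 2, from 29 and 21 counts. Mir499, in an intron of the related myosin gene Myh7b, had 4.36 and 7.72 CPM, from 21 and 27 counts. Mir208b, in an intron of Myh7, had 3 and 1 counts. The Mir208a value was nearly equal in both libraries, and Mir208b was lower than Mir208a in each. Of the rest, Mir1a-1, Mir1a-2, Mir133a-1 and Mir133a-2 had 0 counts in both libraries, and each shares 28 or 31 bases with a second gene. Mir1b, which overlaps Mir1a-2 on the other strand, had 0 and 6 counts. Without Mir206 the list summed to 11.0 CPM in replicate 1 and 15.7 in replicate 2, again from placed reads only.

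Of the 4 liver and gut genes 3 were detected, and the list summed to 62.9 CPM in replicate 1 and 71.5 in replicate 2. Mir122, the main hepatocyte microRNA, had 190 counts in replicate 1 and 110 in replicate 2, or 39.5 and 31.5 CPM, with a mean of 35.5 ± 5.65 CPM (SD, n = 2). It lies in an exon of a noncoding gene, and the longest run it shares with another gene is 12 bases. Its exact intervals, 34.0 to 45.5 and 25.9 to 37.9 CPM, overlapped. Mir194-2 and Mir192 are neighbours on chromosome 19 at 6264643-6264728 and 6264844-6264932, with 115 bases between them and no host gene on their strand. Mir194-2 had 17.0 and 29.8 CPM, with exact intervals of 13.5 to 21.1 and 24.3 to 36.1 that did not overlap. Mir192 had 6.02 and 9.73 CPM, with overlapping intervals. Their ratio was 2.83 in replicate 1 and 3.06 in replicate 2, with exact intervals of 1.83 to 4.48 and 2.06 to 4.65. Mir194-1, the second copy in an intron of 2010103J01Rik, had 2 counts in each library. Its neighbour Mir215, which has the seed of miR-192, had 7 and 2 counts. Since miR-194-5p is the same from both Mir194 genes, the split between them describes only reads that could be placed. The same limit holds for the ratio of Mir194-2 to Mir192 and for the place of Mir194-2 in the order of levels. Mir194-2 shares 22 bases with Mir194-1, while the longest run that Mir192 shares is 13 bases.

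Exocrine pancreas genes were led by Mir217. It had 160 counts in replicate 1 and 106 in replicate 2, or 33.2 and 30.3 CPM, with a mean of 31.8 ± 2.05 CPM (SD, n = 2). Mir217 is on chromosome 11 at 28763728-28763835, within an intron of Gm12082. Mir216a, also intronic to Gm12082, lies 6644 bases upstream at 28757012-28757083 and had 6.85 and 3.43 CPM, from 33 and 12 counts. Mir217 was 4.85 times Mir216a in replicate 1 (exact interval 3.32 to 7.28) and 8.83 times in replicate 2 (4.85 to 17.6), so the order of the pair was the same in both libraries. Mir216b, at 28746191-28746276, had 5 and 10 counts, or 1.04 and 2.86 CPM. Mir216c is annotated on the other strand of Mir216b and had 1 and 0 counts, so nearly all reads at that locus followed the Mir216b strand.

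The miR-200 genes lie in 2 clusters, and a single gene led each. Mir200c, at 124718322-124718390 on chromosome 6, had 132 counts in replicate 1 and 38 in replicate 2, or 27.4 and 10.9 CPM. Mir141, 336 bases away in an intron of the same host gene, Gm15884, had 2 and 0 counts. In replicate 1 the ratio was 66.0, with an exact interval of 17.9 to 551. The longest run that Mir141 shares with another gene is 17 bases, with Mir200a. Mir429, at 156053905-156053987 on chromosome 4, had 11.8 and 7.44 CPM, Mir200b had 3.95 and 4.86 CPM, and Mir200a had 1.25 and 1.43 CPM. Mir429 was 1.53 times Mir200b in replicate 2, with a lower bound of 0.799, and in replicate 1 the lower bound was 1.76 from 57 and 19 counts. Mir429 was thus the higher of the pair beyond counting error in replicate 1 but not in replicate 2. All 3 genes lie within Ttll10 and Gm13648, Mir429 in an exon and the others in introns. Grouped by seed, the AAUACUG genes Mir200b, Mir200c and Mir429 were all detected. Of the AACACUG genes, Mir200a was detected with 6 and 5 counts, and Mir141 was not, with 2 and 0.

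In the miR-183 cluster, which is made as 1 transcript in sensory cells, 2 of the 3 genes were detected. Mir183, at 30169668-30169737 on chromosome 6, had 67 counts in replicate 1 and 31 in replicate 2, or 13.9 and 8.87 CPM. Mir182 had 6.23 and 4.86 CPM, from 30 and 17 counts. Mir183 was 2.23 times Mir182 in replicate 1 (1.43 to 3.56) and 1.82 times in replicate 2 (0.979 to 3.51, which holds 1). Mir96, 116 bases from Mir183, had 0 counts in both libraries. The longest run it shares with another microRNA gene is 11 bases, as for Mir182 and shorter than for every other gene of the list, and miR-96-5p has at least 6 mismatches to every other counted hairpin. The other 5 genes at 0 counts are all of muscle and share 21 bases or more. Matches of Mir96 elsewhere in the genome were not analysed here.

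Of the Hox cluster genes, the 2 miR-10 genes held most counts. Mir10b, in an intron of Hoxd3 and Hoxd4 on chromosome 2 at 74726070-74726137, had 118 counts in replicate 1 and 82 in replicate 2, or 24.5 and 23.5 CPM. Its mean was 24.0 ± 0.738 CPM (SD, n = 2). The exact intervals, 20.3 to 29.3 and 18.7 to 29.1 CPM, were far wider than that SD, so the small SD does not show a stable level. Mir10a, on chromosome 11 at 96317165-96317274 in the Hoxb region, had 7.27 and 9.15 CPM. Mir10b was 3.37 times Mir10a in replicate 1 (2.29 to 5.07) and 2.56 times in replicate 2 (1.68 to 3.99). The more posterior miR-196 genes were lower. Mir196b, in an exon of Hoxa9, had 3 and 9 counts, Mir196a-1 had 2 and 0, and Mir196a-2 had 0 and 1. The Mir196a pair shares the whole of miR-196a-5p, and miR-196b-5p differs from it by 1 base.

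**Figure D4:**
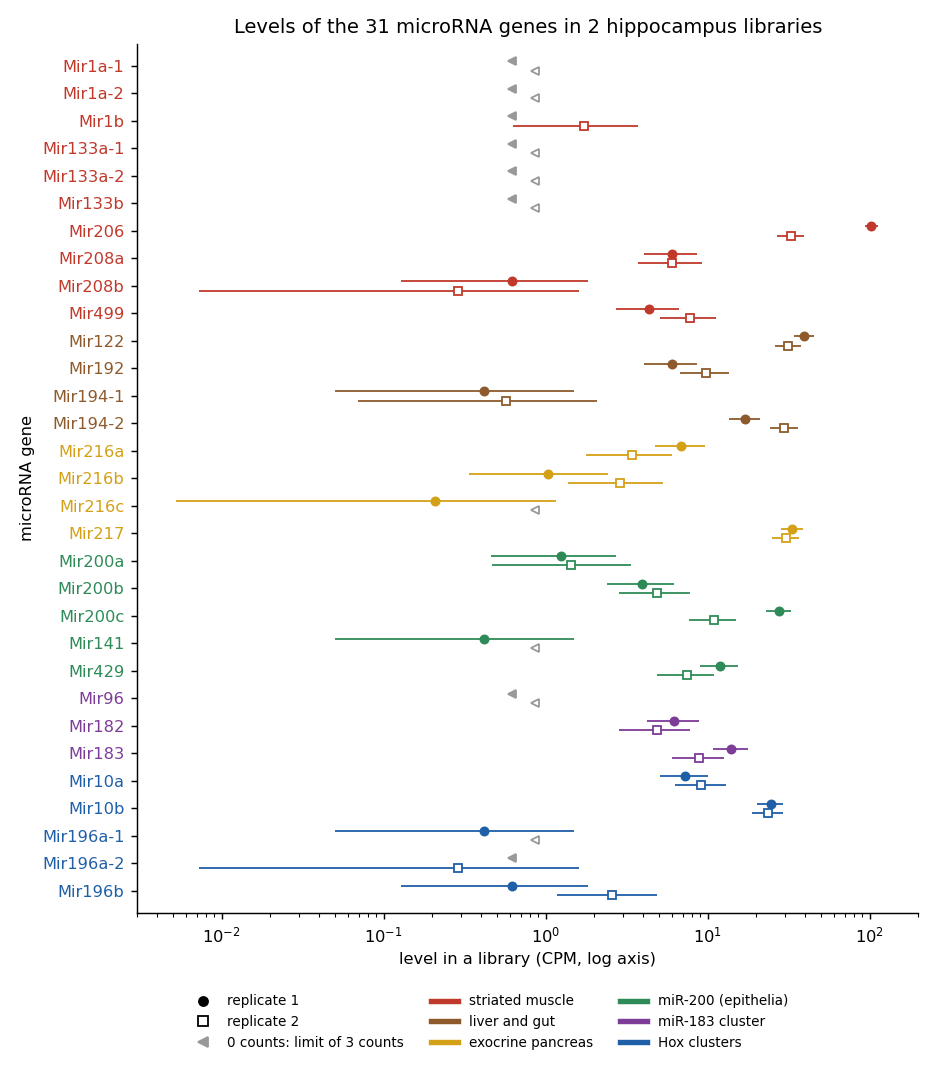
Level of each of the 31 genes (CPM, log axis) in replicate 1 (filled circles) and replicate 2 (open squares), with exact 95% intervals from counting. Grey triangles mark genes with 0 counts at the limit of 3 counts. Mir206 and Mir200c show the clearest gaps between libraries, and Mir208a, Mir217 and Mir10b nearly the same values in both.

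The 2 libraries were then compared gene by gene. For each detected gene an exact two-sided binomial test was run given the library totals, with Benjamini-Hochberg adjustment over all 540 genes. A call needed an adjusted p below 0.05 and a log2 ratio of 1 or more in size. The test holds counting error only and compares these libraries, not conditions. Of the 18 detected genes 2 were called (11.1%), against 18.7% of all genes tested, and whether these shares differ was not tested. Both were higher in replicate 1, against 7.22% of all genes, and 0 of the 18 were called higher in replicate 2, against 11.5%.

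Mir206 was 3.14-fold higher in replicate 1, a log2 ratio of replicate 2 over replicate 1 of -1.65, with an adjusted p of 1.9e-33 by that exact test. Mir200c had a log2 ratio of -1.32, with an adjusted p of 2.4e-07 by the same exact test. These ratios stand against a median log2 ratio of 0.17 over all genes tested and -0.03 over the 18. Mir194-2 passed the adjusted p (0.00043, exact test) but not the ratio, at 0.80. Mir196b had the highest log2 ratio of the 18, 1.90 from 3 and 9 counts, and was not called (adjusted p 0.063, exact test). Of the 18, 9 had a ratio above 0 and 9 below it, while 42.8% of all tested genes lay below 0. With DESeq2 size factors or with TMM (trimmed mean of M values) library sizes Mir208a moved from just above 0 to below it, and Mir216a (log2 ratio -0.96, not called) was called at -1.13 and -1.05.

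**Figure D5:**
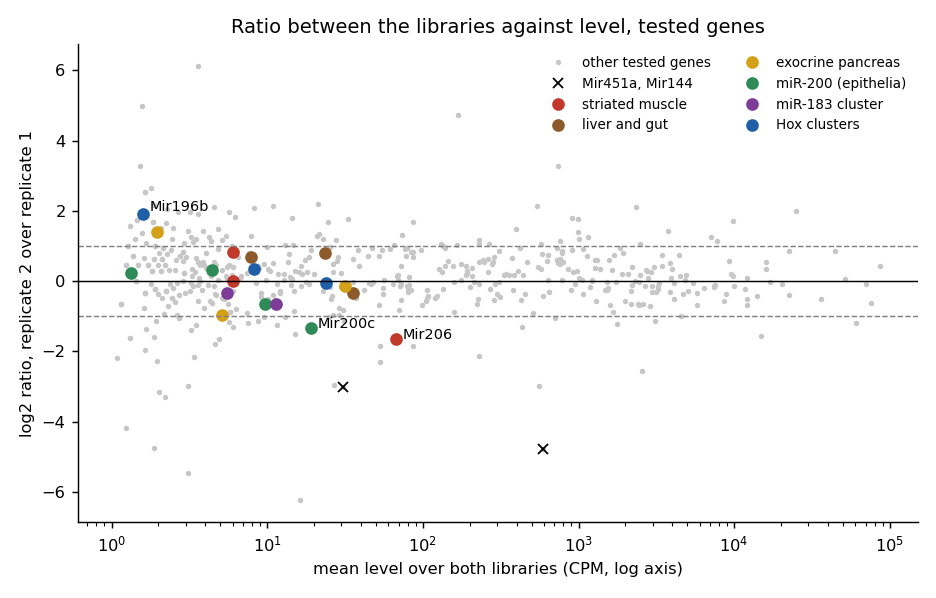
Log2 ratio of replicate 2 over replicate 1 against mean level (CPM, log axis) for the 540 tested genes, with the 18 tissue-typical genes in colour, the red blood cell genes as crosses and dashed lines at ratios of 1 and -1. Mir206 and Mir200c lie below the lower line, and 22 genes of all 540, Mir206 included, lie at or below the ratio of Mir206.

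Markers of other cells moved between the libraries as well. The 2 red blood cell genes were both higher in replicate 1, with Mir451a at 1143 CPM there and 41.5 CPM in replicate 2, and their sum at 1198 and 48.1 CPM. Mir486, also known from red blood cells and named after the values were seen, had 31.6 and 28.3 CPM and was not called (log2 ratio -0.15). The endothelial gene Mir126a stood at 14888 and 9301 CPM and was not called (log2 ratio -0.68). In the other direction, the choroid plexus and ciliated cell list, with 6 of 7 genes detected and Mir449b at 0 counts in replicate 1, stood at 2582 and 5333 CPM. Of the 6, 3 were called (Mir204, Mir211 and Mir34b), against 18.7% of all genes tested. Mir449a, the highest gene of that list, Mir34c and Mir449c were not called. The smooth muscle and mural pair, Mir143 and Mir145a, stood at 3962 and 4390 CPM, most of it Mir143. The log2 ratio of Mir143 was 0.09, below the median of 0.17 over all genes tested, so the sum shows no clear shift. Mir145a alone was called, at 141 and 319 CPM. Mir206 and Mir200c thus differed in the same direction as Mir451a and Mir144, which were called, and as Mir126a, which was not. Mir145a and the called choroid plexus genes went the other way, and 42.8% of all tested genes lay below 0. The part of any of those cells in the difference of Mir206 and Mir200c was not tested. Fewer cells of a type and less RNA per cell cannot be told apart in such bulk samples.

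Of 10 further genes typical of other tissues, 8 matched a symbol in the annotation. The other 2, listed as Mir486a and Mir486b, did not match, and the files hold genes named Mir486 and Mir3107, which were looked up after the values were seen. Of the 8, 5 were detected, against 24.5% of all genes. None of the 5 was called, against 18.7% of all genes tested, but Mir31, Mir375 and Mir203 passed the adjusted p of the exact test and missed only the ratio minimum. Mir31 (584 and 881 CPM), a gene of several epithelia, and Mir375 (507 and 642 CPM), known from pancreatic islets and pituitary, lay far above every gene of the main list. Mir203, of skin, had 60.8 and 108 CPM. Mir184, of cornea and lens, had 12.7 and 12.9 CPM, and Mir205, of stratified epithelia, had 7.48 and 4.01 CPM. Mir615, in the Hoxc cluster, had 4 and 1 counts and the liver gene Mir802 had 1 and 0. The Hox and liver genes outside the main list were thus as sparse as its lowest members.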

How the data were processed

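The authors deposited raw read counts per microRNA gene, 1 file per library and not pooled, made with mm10 and GENCODE M21 per the deposited notes. Which aligner and counter were used is not given in the sources used here. Of 3 count columns, the stranded one with the larger total was used as the sense strand. Library sizes exclude the 4 lines of totals. Replicate 1 had 4815761 counts on genes (38.9% of reads) and replicate 2 had 3495401 (34.6%).

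Symbols, positions, host genes (same strand, small RNAs and pseudogenes left out) and hairpins came from GENCODE M21. CPM was computed from the counts. Log2 ratios had 0.5 counts added. No count model could compare 1 library with 1 library. Both libraries were counted in n because the labels give them as separate biological replicates with different animal numbers. Their counts differed beyond counting error (301 of 540 genes at an adjusted p below 0.05 by the exact test), which separate preparations of 1 RNA could also do. All 31 genes are accounted for, and neighbours are same-strand genes within 10000 bases. The gene lists were chosen with earlier results of these data known. The test was checked on simulated data. Alternatives covered scaling, filters, the ratio minimum, unstranded counts and leaving out each replicate. Tools were Python 3.11.15, SciPy 1.17.1, pandas 2.3.3, R 4.3.3, edgeR 4.0.16 and DESeq2 1.42.0.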

Additional observations from a re-analysis of the deposited data

Results flagged for a closer look

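Some genes of the list had counts on the strand opposite to their own, in a column not used above, beyond the 3 counts that a count of 0 allows. Mir216c had 5 such counts in replicate 1 and 10 in replicate 2, which are the sense counts of Mir216b at the same place. Mir1a-2 had 6 in replicate 2, which are the sense counts of Mir1b. Mir10a had 4 in replicate 1 beside 35 sense counts, and no other microRNA gene is annotated on its other strand. With 2 libraries in 1 group, neither a library that stands apart nor a difference between groups could be looked for.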

How the results depend on the processing

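The summed level of each of the 6 lists and of all 31 genes moved by less than 1 SD with TMM library sizes, DESeq2 size factors or unstranded counts, except that the Hox list was 37.0 CPM with unstranded counts against 34.1 CPM. Without replicate 1 the 31 genes summed to 230 CPM and without replicate 2 to 315 CPM, and for muscle these values were 48.3 and 113 CPM, so the muscle level rests on the library. With 2 libraries, either alone lies within 1 SD of their mean by construction, which says nothing about stability. The same ranges were 62.9 to 71.5 CPM for liver and gut, 36.6 to 41.3 for pancreas, 24.6 to 44.9 for miR-200, 13.7 to 20.1 for miR-183 and 32.8 to 35.5 for Hox. The number detected was 15 to 20 under 5 other rules, against 18. The number called was 2 or 3 under 6 other settings, with Mir206 and Mir200c in each. They were joined by Mir216a with TMM or DESeq2, where 17.8% and 18.7% of all genes tested were called. With no count filter Mir1b joined them, for 3 of 25 genes of the list against 13.9% of all. With no ratio minimum Mir194-2 joined them, for 3 of 18 against 55.7% of all. With unstranded counts or a minimum of 50 counts 2 were called, of 17 and of 11, against 18.7% of all in both. Over all genes, the share of calls higher in replicate 2 was 61.4%, but 52.1% with TMM and 45.5% with DESeq2 factors, where the median log2 ratio was 0.09 and 0.01. With no ratio minimum 301 genes were called, against 101. No paired analysis was possible because the labels give 1 group. Counting error is wide for the 13 genes under 10 counts, 9 of which are among the 10 that share at least 20 bases with another gene.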
